A study of Oncorhynchus mykiss with 27 samples.

Results

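Among the cDNA clones of a rainbow trout array hybridized with testis samples, 155 stood at least 2-fold higher in explants cultured without hormone than in the tissue before culture, and these clones are described here. They were chosen from the measured values. A clone was taken when 22 or more of the 27 arrays gave it a value, a mean of at least 6.42 on the log2 scale in control culture, and a control mean at least 1 log2 unit above that of the uncultured tissue. Control spots were left out, and so were the 102 clones that the study had selected as Fsh-responsive. Of 9024 clones on the array, 4002 other than those 102 met the conditions on values and level, and the 155 are 3.87% of these. No table used here pairs their clone names with genes or sequences, so they are called by clone name, no sequence is printed, and they could not be grouped by function. The same limit meant that markers of testicular cell types could not be checked among them.

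The explants were small pieces of testis from an all-male trout population, taken at an early stage of maturation, pooled over fish and spread over culture wells. After 96 h, 6 arrays were made of explants with no added substance (Ctrl), 6 with salmonid Fsh purified from pituitaries at 500 ng/mL (Fsh), 6 with trilostane at 10 µg/mL (Tri) and 6 with both (Fsh+Tri), and 3 further arrays hold tissue of day 0 (T0). All wells drew on 1 pool, so the spread between arrays, and every p-value below, is a spread between wells rather than between fish. The labels give maturity stage I-II for all 6 Ctrl arrays, 3 Fsh, 4 Tri, 2 Fsh+Tri and 1 T0 array, and stage III for the rest. By the study's methods, however, every well held explants of both stages, so the stage label of an array cannot be read as the stage of all its tissue.

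Fsh is a pituitary hormone that acts on somatic cells of the testis, among them Sertoli cells, which nurse the germ cells. In fish it also raises the output of steroids. The study cites Fsh receptors in interstitial cells, probably Leydig cells, of several fish species. Trilostane blocks 3β-hydroxysteroid dehydrogenase, which converts Δ5 steroids to the Δ4 series that contains the androgens and progestins active in fish. In the study's own assay of the media, androgen output under Fsh fell strongly with trilostane but did not end. Tissue explants keep germ cells and somatic cells together but lose the supply of pituitary hormones and blood, and levels of many transcripts shift within days. In such bulk samples, fewer cells of a type and less RNA per cell cannot be told apart.

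All values are the authors' quantile-normalized log2 values. Taken as medians over the arrays, their lower quartile was 5.80, their median 6.42 and their upper quartile 7.30. The values give a clone's standing among all clones of the same array, not an amount of RNA. A difference of 1 is a factor of 2. On each array between 8310 and 9133 clones and controls had a value, the highest number being on Ctrl replicate 3, and 153 of the 155 clones had one on all 27 arrays. The median spot intensity of the arrays before normalization ran from 49.0 on T0 replicate 1 to 138.5 on T0 replicate 3, so both extremes were T0 arrays.

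The median of the 155 clones was 6.68, 6.70 and 6.79 on the 3 T0 arrays. It was 7.75 on Ctrl replicate 4 and between 8.13 and 8.52 on the other 5 Ctrl arrays. It ran from 8.21 to 8.50 on Fsh arrays, from 8.32 to 8.43 on Tri arrays and from 8.36 to 8.59 on Fsh+Tri arrays. No cultured array overlapped T0, and Ctrl replicate 4 lay closest to it. On that array the members stood only 0.94 above their T0 mean in the median, against 1.33 to 1.58 on the other Ctrl arrays. It was the lowest of the 6 Ctrl arrays for 94 of the 155 clones (60.6%), against 31.3% of all 4002 clones.

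**Figure D1:**
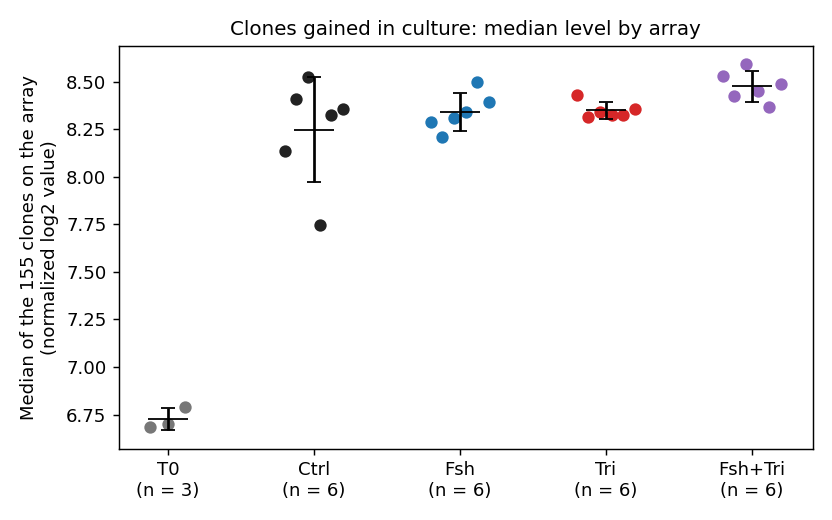
Median normalized log2 value of the 155 clones on each array (points), by group, with the mean and SD of these medians over arrays (bar and whiskers, n = 3 for T0 and 6 for each cultured group). The 3 T0 arrays sit between 6.68 and 6.79 and Ctrl replicate 4, at 7.75, lies below the other cultured arrays.

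The gain in control culture, which is what the choice rested on, was mostly modest. It lay between 1.0 and 1.5 log2 units for 105 clones, between 1.5 and 2.0 for 33, between 2.0 and 3.0 for 13 and above 3.0 for 4, with a median of 1.30 (2.47-fold) and a maximum of 5.12. The nearest clones just past the limit were tcav0004.c.07, tcay0009.p.07 and tcbk0048.l.03, at 1.001, 1.002 and 1.006. Those just short of it were 1rt119f17_b_c09, tcbk0003.i.12 and tcac0003.m.22, at 0.998, 0.995 and 0.989, so the limit falls in a continuous range. Before culture 56 of the 155 clones were below the level of 6.42, and 24 were below the lower quartile of the arrays. Their T0 means ran from 5.18 to 11.90 and their Ctrl means from 6.55 to 13.12, so that 48 clones were already in the range above the upper quartile of the array at day 0 and 124 were there in control culture.

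For 132 of the 155 clones every Ctrl array was above every T0 array, as it was for 9.90% of the 4002 clones. The choice used these same 9 arrays, so this and the counts that follow describe the gain and are no independent support for it. Leaving out each of the 9 Ctrl and T0 arrays in turn kept 108 of the 155 past the limit every time, and 149 were past it with the median of the Ctrl arrays in place of the mean. Set against the T0 array labelled stage I-II alone, the label of all Ctrl arrays, 127 stayed at least 2-fold higher.

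The 8 clones with the largest gain had T0 means from 5.82 to 7.98 and Ctrl means from 9.11 to 11.01, far above the upper quartile of the arrays. Clone tcbk0019.f.14 was at 5.61, 5.99 and 5.86 on the T0 arrays and at 10.60 to 11.23 (median 10.97) on the Ctrl arrays, a 34.7-fold gain. Clone tcbk0062.j.01 was at 6.69, 6.86 and 6.77 at T0 and at 10.15 to 11.73 (median 11.26) in Ctrl, an 18.9-fold gain. Clone 1rt146k24_c_f12 was at 6.39, 6.35 and 6.33 at T0 and at 9.33 to 10.88 (median 10.32) in Ctrl, a 14.9-fold gain. None of these groups overlapped, and in each clone the spread among the 3 T0 arrays was small beside the gain.

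Clone tcay0009.l.07 was at 6.57, 6.77 and 6.48 at T0 and at 10.18 to 11.11 on 5 Ctrl arrays, but at 6.97 on Ctrl replicate 4. Its 9.60-fold gain in the mean is thus held down by 1 array, and the 18 treated arrays were all between 10.24 and 11.26. The other 4 were 1rt83j04_d_e02, 1rt154b14_d_a07, tcbk0053.a.02 and 1rt39g22_c_d11, with gains of 7.78-, 7.75-, 7.62- and 7.16-fold. In all 4 the lowest Ctrl array was above the highest T0 array. Clone tcbk0053.a.02 had the widest T0 values of the 8, at 7.36, 8.51 and 8.07.

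**Figure D2:**
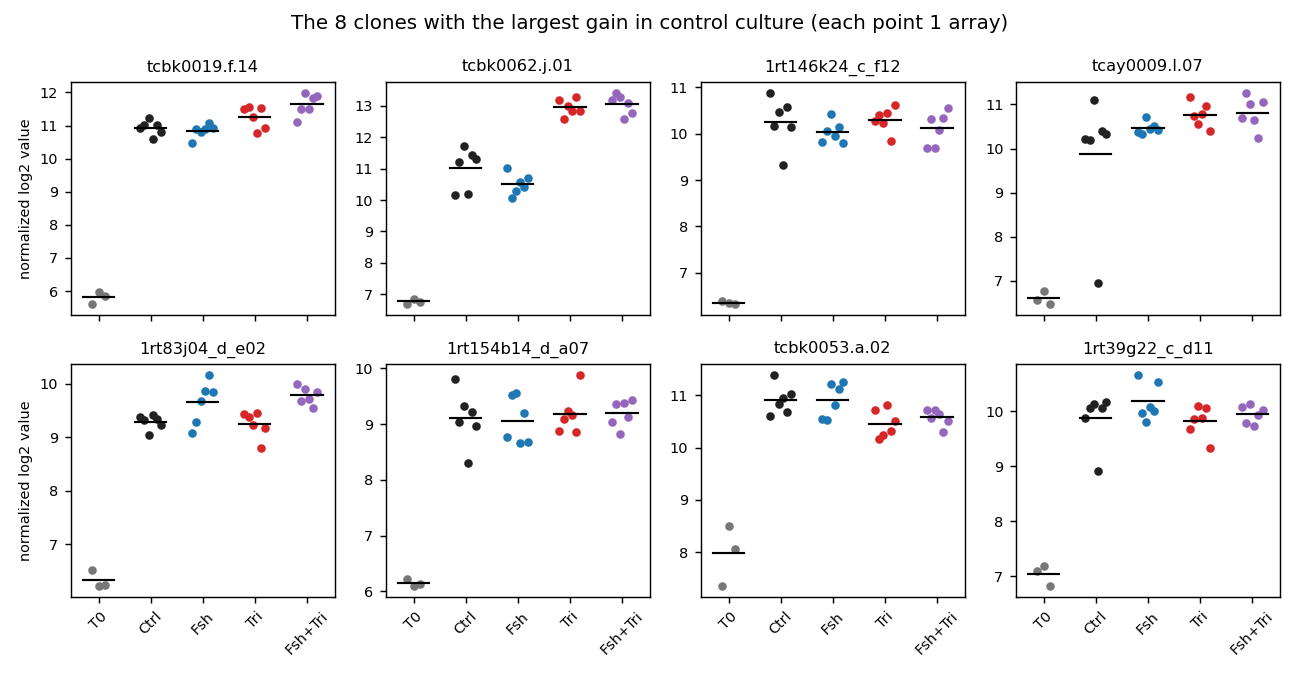
Normalized log2 value on each array (points) and group mean (line) for the 8 clones with the largest gain in control culture. In every panel the T0 points lie at the bottom, and Ctrl replicate 4 is the single low Ctrl point at 6.97 for tcay0009.l.07.

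The question put to these clones was how they stood when Fsh, trilostane or both were added. Since the choice used the Ctrl and T0 arrays, differences from either group are given as a description with no test. All 155 clones were above their T0 mean in each treated group (against 46.7%, 49.4% and 50.2% of the 4002 with Fsh, Tri and Fsh+Tri). They were at least 2-fold above it for 137 clones with Fsh (88.4%, against 4.70% of the 4002), 135 with Tri (87.1%, against 5.02%) and 131 with Fsh+Tri (84.5%, against 5.25%). In 122 clones this held in all 3 treated groups, in 23 in 1 or 2 of them, and in 10 in none. The 33 clones that missed it somewhere had small gains in control culture, with a median of 1.12 and a maximum of 1.42. The shares of the 4002 clones for these joint counts were not computed, and the choice had used the same T0 arrays. All 18 treated arrays were above every T0 array for 141 of the 155 clones, against 8.87% of the 4002. The T0 arrays are shared by all these comparisons, so the 3 counts do not stand for 3 separate observations of day 0.

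**Figure D3:**
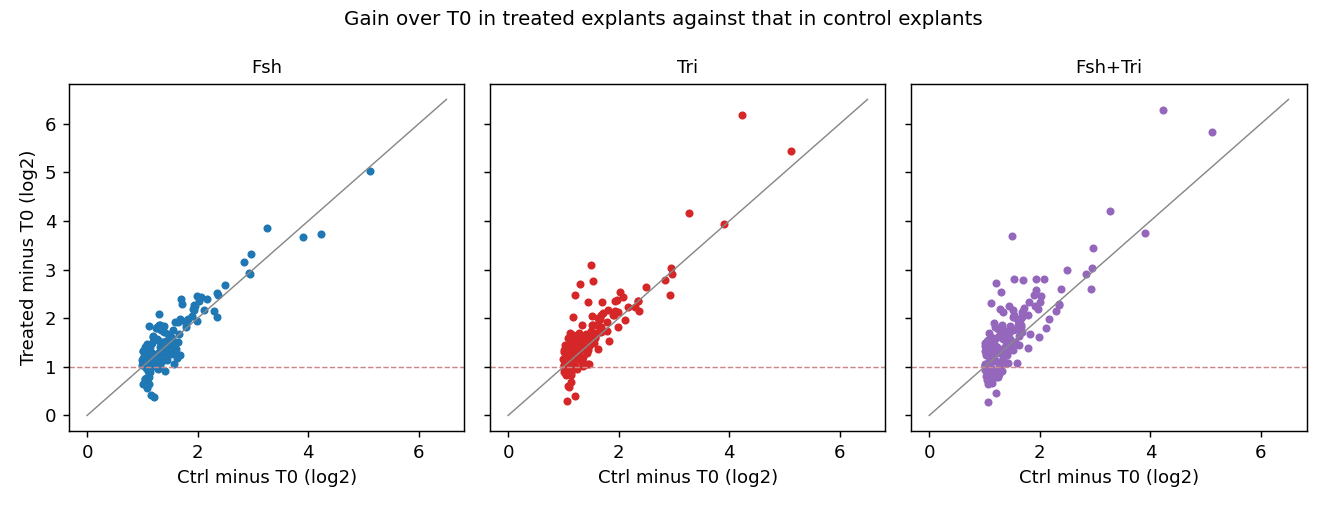
Mean log2 gain over T0 with Fsh, Tri or Fsh+Tri (vertical axes) against the gain in Ctrl (horizontal axes) for the 155 clones, with the line of equal gain and a dashed line at 1 log2 unit. Both axes share the T0 mean. The clones follow the line with Fsh, and a few stand well above it with Tri and Fsh+Tri, the highest being tcbk0062.j.01 at 6.18 and 6.29.

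Relative to Ctrl, the level of the clones as a set was close. The median differences of Fsh, Tri and Fsh+Tri were 0.03, 0.09 and 0.21, and over all 4002 clones it was -0.06, -0.03 and -0.03. Without Ctrl replicate 4 the medians of the 155 were -0.04, -0.03 and 0.10, so the sign of the first 2 rests on that array. The means of the 4 cultured groups lay within 1.5-fold of each other in 127 clones (81.9%, against 94.1% of all 4002). The highest of the 4 means was that of Fsh+Tri in 68 clones (43.9%, against 24.4% of all 4002), Fsh in 36 (23.2%, against 20.8%), Tri in 30 (19.4%, against 22%) and Ctrl in 21 (13.5%, against 32.8%). The Ctrl mean counts Ctrl replicate 4, which was low for most of these clones.

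Most clones stayed within 1.5-fold of Ctrl, but with all Ctrl arrays counted the share that stood higher was above that of the 4002 clones. With Fsh, 4 stood at least 1.5-fold higher and 2 lower (2.58% and 1.29%, against 0.725% and 1.00% of the 4002). With Tri the numbers were 9 and 2 (5.81% and 1.29%, against 0.850% and 0.700%). With Fsh+Tri they were 19 and 2 (12.3% and 1.29%, against 1.27% and 0.850%). Without Ctrl replicate 4 they became 2 and 7 with Fsh, 6 and 1 with Tri, and 14 and 6 with Fsh+Tri. More clones were then lower than higher with Fsh. The shares of the 4002 clones without that array were not computed, so these counts have no background beside them. With all Ctrl arrays counted, 0 clones were 2-fold or more above Ctrl with Fsh, as were 0 of the 4002. With Tri the number was 5 (3.23%, against 0.175% of the 4002) and with Fsh+Tri 7 (4.52%, against 0.275%). Downward, such a difference was seen in 0 with any treatment (0.10% of the 4002 with Fsh and 0.0750% with either of the others). For Fsh alone the absence of large upward differences is shared by all 4002 clones. It is partly set by the choice, because the study's Fsh-responsive clones had been taken out before both counts. Of the 84 such clones with the same level, 21 (25.0%) also gained at least 2-fold in control culture.

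The clones furthest above Ctrl with Fsh were tcay0012.e.18, tcbk0018.p.22 and tcbk0035.l.03, at 0.79, 0.71 and 0.70. Clone tcay0012.e.18 ran from 6.92 to 7.68 (median 7.40) in Ctrl and from 7.51 to 9.39 (median 7.96) with Fsh, the value of 9.39 being that of 1 array. Clone tcbk0018.p.22 ran from 6.48 to 7.08 (median 6.69) in Ctrl and from 6.95 to 8.25 (median 7.33) with Fsh. The groups overlapped in both. Clone tcbk0035.l.03 ran from 7.07 to 8.09 (median 7.67) in Ctrl, from 7.80 to 8.53 (median 8.50) with Fsh and from 8.52 to 9.06 (median 8.73) with Fsh+Tri, where it no longer overlapped Ctrl.

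Of the clones furthest below Ctrl, 2 owed their place among the 155 to a single Ctrl array. Clone 1rt54b10_d_a05 was at 10.32 on Ctrl replicate 4 and between 6.46 and 6.84 on the other 5 Ctrl arrays. Its 18 treated arrays ran from 5.76 to 6.73 and its T0 arrays were at 6.06, 5.88 and 6.09. Clone tcbk0035.i.02 was at 10.32 on Ctrl replicate 2 and between 5.21 and 6.62 on the others, with treated arrays from 5.34 to 7.21. The median of its Ctrl arrays was only 0.33 above its T0 mean, the lowest of the 155. These 2 clones gave the 2 largest differences below Ctrl with Tri (-0.82 and -0.76) and with Fsh+Tri (-0.75 and -0.80), and 1rt54b10_d_a05 the largest with Fsh (-0.84).

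The next below Ctrl with Fsh did not rest on such a value. Clone 1rt30j20_d_e10 was at 9.24 to 9.76 on 5 Ctrl arrays and at 6.97 on Ctrl replicate 4, and ran from 7.97 to 8.60 with Fsh and from 8.87 to 10.02 with Tri. With Fsh it was 0.73 below the Ctrl mean. The 5 other Ctrl arrays were above all Fsh arrays, and Ctrl replicate 4 was below them all. Clone tcay0038.h.08 was 0.53 lower with Fsh, at 5.71 to 6.52 (median 6.19) against 6.29 to 7.03 (median 6.68) in Ctrl. With Tri, tcay0029.n.18 had the third largest difference, -0.51, and with Fsh+Tri tcba0018.b.14, also -0.51.

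The difference of means of Fsh+Tri with Fsh, like that of Fsh+Tri with Tri further below, involved neither Ctrl nor T0. It asks what trilostane did in the presence of Fsh. The spread behind its p-values was shared over the 4 cultured groups and so took in the Ctrl arrays. In limma's fit over 4540 clones with Benjamini-Hochberg adjustment at 0.05, 11 of the 155 clones were higher with Fsh+Tri than with Fsh and 1 was lower. That is 7.10% and 0.645% of the clones. Among all clones tested, 0.991% were higher and 0.463% lower, and among the 4438 outside the study's list 0.856% and 0.158%. The study drew its list partly on these Fsh and Fsh+Tri arrays, and the choice left it out. Of all clones tested 45 were higher and 21 lower, but outside the list 38 and 7. The balance of higher to lower calls is thus partly set by the choice. With only the 18 treated arrays in the fit, 13 of the 155 were higher and 1 lower, and all 12 clones passed again. The shares of all clones tested in that fit were not computed. At an unadjusted p under 0.05 the counts were 31 higher (20.0%, against 6.04% of all clones tested) and 9 lower (5.81%, against 3.66%). Outside the list the shares at that limit were 5.84% higher and 2.91% lower. The median difference of the 155 clones was 0.12, and that of all clones tested 0.03.

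The largest difference was that of tcbk0062.j.01. It ran from 10.06 to 11.02 (median 10.50) with Fsh and from 12.59 to 13.42 (median 13.14) with Fsh+Tri. The difference was 2.55 ± 0.22 (SE, 5.85-fold, adjusted p = 1.20e-09, limma), and all 6 Fsh+Tri arrays were above all 6 Fsh arrays. Trilostane alone gave 12.57 to 13.30 (median 12.92), also above every Ctrl array. On top of its 18.9-fold gain in Ctrl, its means with Tri and Fsh+Tri were 72.7- and 78.2-fold above T0.

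Clone tcbk0027.h.05 ran from 8.80 to 9.36 (median 9.14) with Fsh and from 11.10 to 11.73 (median 11.35) with Fsh+Tri. The difference was 2.30 ± 0.16 (SE, 4.92-fold, adjusted p = 4.05e-12, limma). With Tri it ran from 10.48 to 11.18 (median 10.73), above all Ctrl arrays, whose range was 8.85 to 9.58, and mostly below the Fsh+Tri arrays. Fsh alone left it within the range of Ctrl except for 1 array, at 8.80.

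Clone tcbk0037.p.03 ran from 5.91 to 7.03 (median 6.32) with Fsh and from 7.48 to 8.80 (median 8.11) with Fsh+Tri, a difference of 1.71 ± 0.21 (SE, adjusted p = 2.06e-06, limma). Clone tcbk0056.h.03 ran from 6.90 to 8.05 (median 7.32) with Fsh and from 8.12 to 8.96 (median 8.69) with Fsh+Tri, a difference of 1.28 ± 0.19 (SE, adjusted p = 7.59e-05). In both, as in tcbk0062.j.01, tcbk0027.h.05 and tcay0020.h.10, all 6 Tri arrays were also above all 6 Ctrl arrays. The Ctrl arrays had been used for the choice, and the share of all clones with such a separation was not computed, so this is a description.

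In 2 more of the 6 clones with the smallest p, the step with trilostane alone was less separate. Clone 1rt41c21_a_b11 was at 6.26 to 6.94 (median 6.83) with Fsh and at 7.60 to 8.26 (median 7.83) with Fsh+Tri, a difference of 1.13 ± 0.17 (SE, adjusted p = 5.24e-05, limma). With Tri it was at 6.79 to 7.52 (median 7.27), overlapping Ctrl at 6.23 to 7.11. Clone 1rt108d24_d_b12 was at 5.92 to 6.94 (median 6.53) with Fsh and at 7.51 to 8.29 (median 7.64) with Fsh+Tri, a difference of 1.24 ± 0.20 (SE, adjusted p = 0.000128). With Tri only 2 of its 6 arrays were above all Ctrl arrays.

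The remaining calls, named after their values were seen, were smaller or less stable. Clones tcay0020.h.10, tcay0030.d.23 and tcbk0019.f.14 were higher with Fsh+Tri than with Fsh by 1.00 ± 0.17, 0.91 ± 0.16 and 0.80 ± 0.16 (SE), with adjusted p-values of 0.000306, 0.000403 and 0.00304 by limma. Clone tcbk0019.f.14, which had the largest gain of all, thus stood at 11.12 to 11.99 with Fsh+Tri against 10.46 to 11.08 with Fsh. Clone 1rt87a03_a_a02 was higher by 0.57 ± 0.13 (SE, adjusted p = 0.0132), and 1rt116k18_c_f09 by 1.21 ± 0.29 (SE, adjusted p = 0.0232). In all 11 clones the Fsh+Tri arrays were above the Fsh arrays with no overlap. They had been called on this same contrast, so the lack of overlap describes them and adds no support. The call for 1rt87a03_a_a02 was lost without Fsh replicate 4 (adjusted p = 0.0610 at its highest) or Fsh+Tri replicate 6, and that for 1rt116k18_c_f09 without Fsh replicate 1, 3 or 5 or Fsh+Tri replicate 3 and with a robust trended prior (at most 0.0857).

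The clone that was lower was tcay0015.j.13, at 8.94 to 9.59 (median 9.09) with Fsh and 7.79 to 8.59 (median 8.39) with Fsh+Tri. The difference was -0.85 ± 0.20 (SE, adjusted p = 0.0162, limma), with no overlap between the groups. Without Fsh replicate 1 or Fsh+Tri replicate 4 it no longer passed, with an adjusted p of up to 0.0669. It was at 8.71 to 9.06 on 5 Ctrl arrays and at 7.47 on Ctrl replicate 4.

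**Figure D4:**
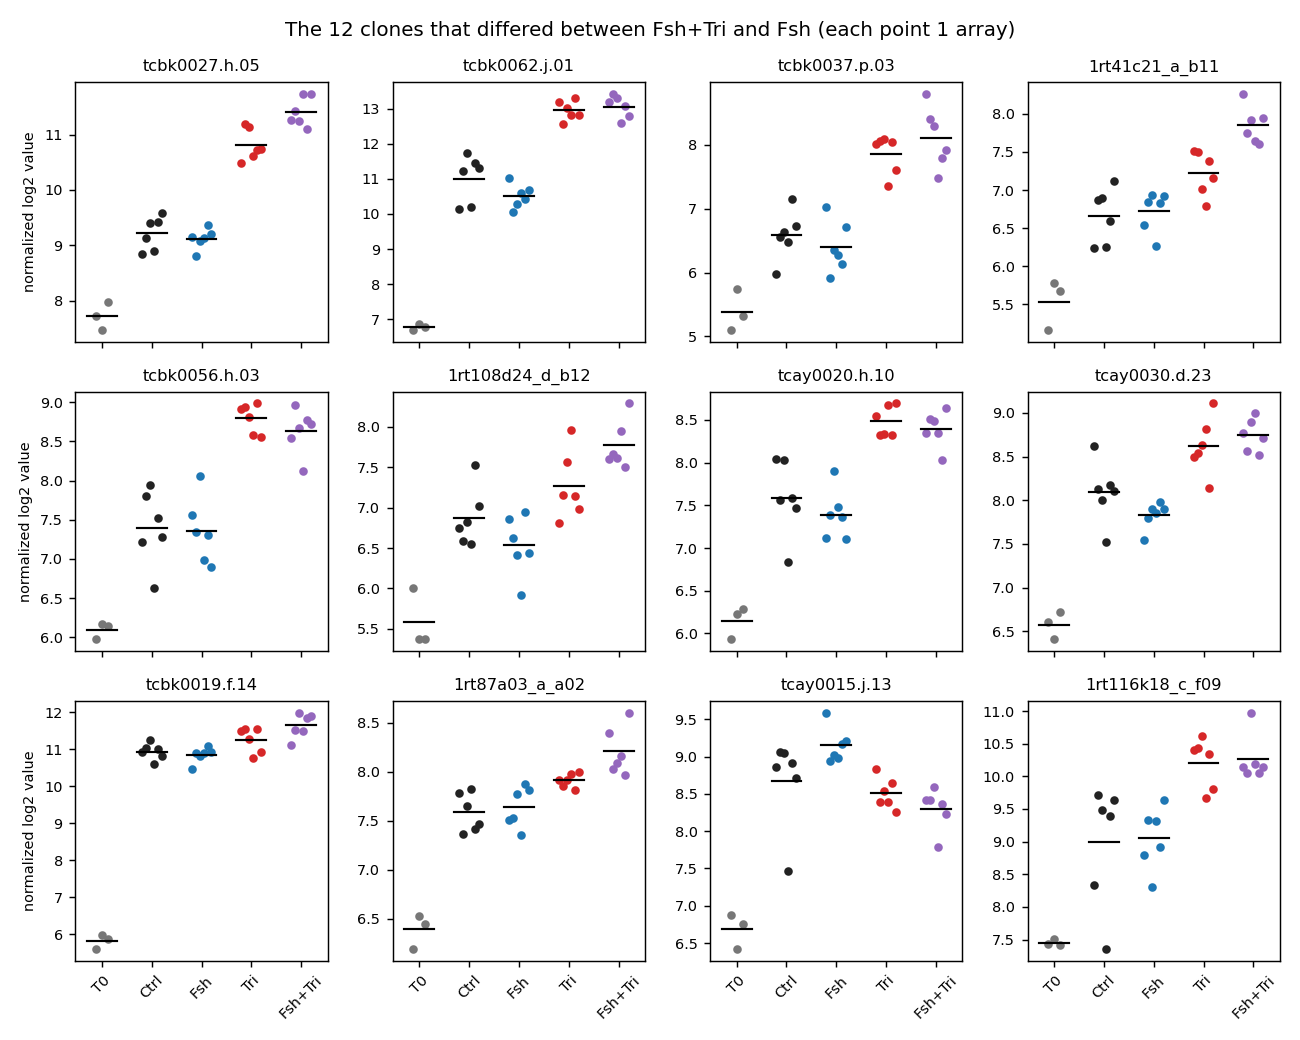
Normalized log2 value on each array (points) and group mean (line) for the 12 clones that differed between Fsh+Tri and Fsh. The Fsh+Tri points lie above all Fsh points in 11 panels and below them for tcay0015.j.13.

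All 11 clones that were higher with Fsh+Tri than with Fsh also had a Tri mean above the Ctrl mean, by 0.32 to 1.95. Their Fsh means lay between 0.50 below and 0.06 above Ctrl. These are separate arrays for the 2 trilostane comparisons, but the Ctrl arrays had been used for the choice, so the first is a description. A Tri mean above the Ctrl mean was also common among the members as a whole, at 63.2%, against 42.7% of the 4002 clones. The Ctrl mean counts Ctrl replicate 4, which was the lowest Ctrl array for 60.6% of the members. Beyond the 11, the clone with the largest difference from Ctrl with Tri was tcay0009.l.07, at 0.90, whose Ctrl mean holds the low value of replicate 4. Its difference between Fsh+Tri and Fsh was 0.35 ± 0.38 (SE, adjusted p = 0.829, limma). That SE takes in the low Ctrl array. Within the groups compared the SD was 0.14 with Fsh and 0.37 with Fsh+Tri, and with only the 18 treated arrays the adjusted p was 0.366.

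**Figure D5:**
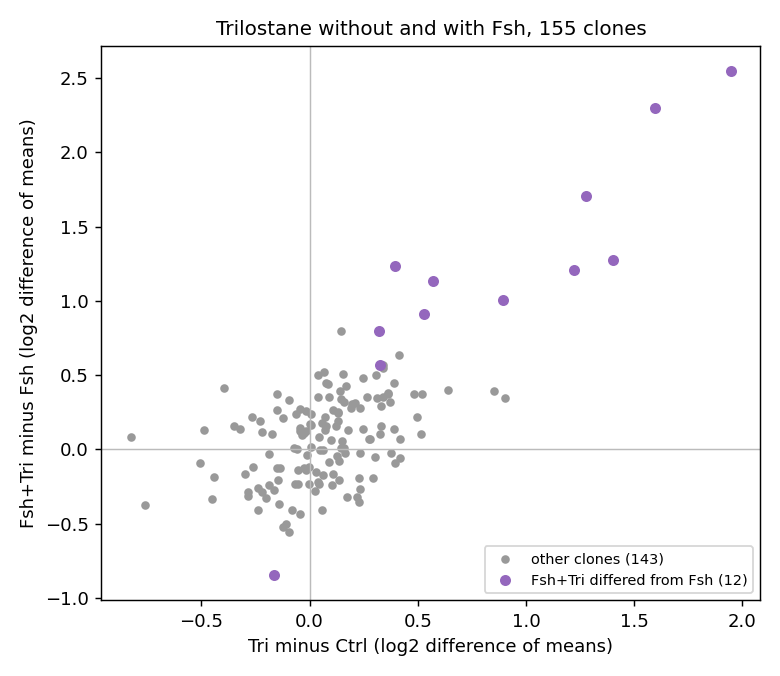
Difference of means with trilostane in the presence of Fsh (Fsh+Tri minus Fsh, vertical axis, log2) against that in its absence (Tri minus Ctrl, horizontal axis, log2) for the 155 clones, with the 12 that differed between Fsh+Tri and Fsh in colour. The 2 axes use separate arrays. The uppermost points are tcbk0062.j.01 (1.95 and 2.55) and tcbk0027.h.05 (1.60 and 2.30).

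The 11 higher clones were alike to differing degrees in their course over the 24 cultured arrays. Pearson's r between pairs of them ran from 0.38 to 0.94 with a median of 0.72. The arrays of 4 treatments were shared by every pair, and the treatments themselves made part of the correlation. The highest r was between tcbk0062.j.01 and tcbk0037.p.03. With no sequence at hand, whether any of these clones come from the same transcript could not be checked. Among the 102 clones of the study's list, for which gene names are given, the one most like 7 of the 11 was that of sl, which encodes somatolactin, a fish hormone of the growth hormone and prolactin family. Over the 24 arrays r ran from 0.72 for 1rt108d24_d_b12 to 0.92 for tcbk0062.j.01, and the other 4 (1rt41c21_a_b11, tcbk0019.f.14, 1rt87a03_a_a02 and 1rt116k18_c_f09) were more like other clones of that list. That clone averaged 7.52 ± 0.25 (SD, n = 3) at T0, 8.69 ± 0.22 (SD, n = 6) in Ctrl, 8.14 ± 0.15 in Fsh, 9.92 ± 0.17 in Tri and 9.91 ± 0.16 in Fsh+Tri. The clone most opposed to 10 of the 11, all but 1rt87a03_a_a02, was that of slc26a4, an anion transporter, with r from -0.83 to -0.58. Its means were 5.53 at T0, 7.27 in Ctrl, 9.50 in Fsh, 5.59 in Tri and 5.62 in Fsh+Tri. This comparison was made after the values had been seen. The 11 were called on arrays that r also used, so a listed clone raised by trilostane would rank as alike. One lowered by it would rank as opposed. The rankings thus largely follow from the calls, and shared regulation was not tested.

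Fsh+Tri against Tri shows Fsh with Δ4 steroid synthesis largely, though not fully, blocked. For this contrast limma called 0 of the 155 clones higher and 0 lower after adjustment. At an unadjusted p under 0.05, 24 were higher (15.5%, against 6.76% of all clones tested) and 2 lower (1.29%, against 4.58%). Outside the study's list the shares were 5.66% higher and 4.30% lower. The choice bears directly on these counts. The study had drawn its list on this contrast as well as on Fsh against Ctrl, and of all 4540 clones tested the calls (0.330% higher and 0.022% lower) were all on that list, with 0 among the 4438 others. The 2 clones with the smallest p upward were tcbk0027.h.05, higher by 0.60 ± 0.16 (SE, adjusted p = 0.0758, limma), and 1rt41c21_a_b11, higher by 0.62 ± 0.17 (SE, adjusted p = 0.0965). Downward they were tcba0018.b.14, at -0.51 ± 0.20 (SE, adjusted p = 0.349), and 1rt152f19_b_c10, at -0.44 ± 0.20 (SE, adjusted p = 0.408). With only the 18 treated arrays in the fit, the first 3 of these passed, with adjusted p-values of 0.0401, 0.0442 and 0.0315. Both upward clones also passed with array weights (0.0490 and 0.0163) and without Ctrl replicate 4 (0.0403 and 0.0459). Clone tcba0018.b.14 ran from 11.69 to 12.25 (median 12.06) with Tri and from 11.36 to 11.72 (median 11.51) with Fsh+Tri, where the ranges overlapped slightly.

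The F-test over both contrasts, for any difference among Fsh, Tri and Fsh+Tri, passed 13 of the 155 clones (8.39%), against 3.13% of all clones tested and 1.67% of those outside the study's list. At an unadjusted p under 0.05 it passed 46 (29.7%, against 15.3% of all clones tested and 13.4% of those outside the list). With only the 18 treated arrays it passed 20 after adjustment, but the share of all clones tested in that fit was not computed. The 13 were the 12 clones above and 1rt40i14_c_e07, named after its value was seen, which was lowest with Tri. It ran from 7.75 to 8.21 (median 8.13) with Tri, from 8.32 to 9.19 (median 8.60) with Fsh and from 8.35 to 8.76 (median 8.46) with Fsh+Tri, with an adjusted p of 0.0333 by limma's F-test.

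Within the 18 treated arrays, those labelled stage III were compared with those labelled stage I-II, with treatment in the fit. By limma 0 of the 155 clones were higher and 0 lower after adjustment, against 0% of all 4540 clones tested, and 11 were higher and 11 lower at an unadjusted p under 0.05 (7.10% each, against 4.58% and 7.0% of all clones tested). The median difference was 0.02 for the 155 clones. With 9 arrays on each side, and both stages in every well, this does not show that the stages had the same levels.

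Clone names begin with a short code, whose meaning is not given in the sources used here. Among the codes with at least 50 of the 4002 clones the share of members was highest in tcav, at 5 of 74 (6.76%). Of the clones in tcbk, 47 of 777 were members (6.05%), and of those in 1rt 51 of 1421 (3.59%). In tcay the share was 21 of 675 (3.11%), in tcba 16 of 392 (4.08%) and in tcad 10 of 263 (3.80%). It was 3 of 152 in tcac (1.97%), 1 of 54 in tcab (1.85%), 0 of 80 in tcbi and 0 of 71 in tcaa. Clones of 1 code can come from the same transcript, so these shares carry no test. Of the 12 clones that differed between Fsh+Tri and Fsh, 5 were in tcbk, 4 in 1rt and 3 in tcay. Calls by code among all clones tested were not computed, so this split has no background beside it.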

How the data were processed

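Steady-state transcript levels were measured on 27 nylon membrane arrays of cDNA clones hybridized with radiolabelled cDNA, and groups were taken from the sample labels. The deposited data comprise spot intensities from the image software and 1 table of log2 values. To make the log2 values, the authors corrected each spot for the amount of spotted cDNA through its hybridization with a vector oligonucleotide, took log2 and applied quantile normalization. The log2 values were used as deposited. Spot names of the intensity files pair with no clone here, so that intensities served only for the median spot intensity of each array. Columns of samples not used number 0, and 192 rows of water and vector controls were left out.

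Quantile normalization forces the same distribution on every array, so a difference is a shift relative to the other clones. The number of arrays limits the precision.

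Group means of the 4 cultured groups were fitted jointly to 24 arrays with lmFit and eBayes of limma 3.58.1 (R 4.3.3), over 4540 clones whose mean in at least 1 group was at or above the array median and which had at least 20 values. All 155 members passed this filter, through the Ctrl level that the choice required. Stage was tested on the 18 treated arrays with treatment in the model. Benjamini-Hochberg adjustment ran over all clones tested, with 0.05 as the limit. The procedure was tested on simulated data. Plots used matplotlib 3.10.9 (Python 3.11.15).

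The members and lists were chosen with earlier results of these data known. Clones named are the 8 with the largest gain, the 3 nearest the limit on either side, up to 6 passing each tested contrast (otherwise the 2 with the smallest p each way), and the 3 furthest from Ctrl each way with each treatment, and others are marked where they appear. Replicate numbers did not pair the arrays, as same-numbered arrays of 2 groups correlated from -0.35 to 0.17 in their deviations from the group means. Alternatives covered filters, normalization, spread, covariates, stage, the replicate number as a block and leaving out each array.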

Additional observations from a re-analysis of the deposited data

Results flagged for a closer look

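In 120 sets of 6 arrays (the median of the 155 clones and the 29 clones named by rule or for a test, in each cultured group), 17 had 1 array that stood apart from the other 5 by Dixon's criterion, where chance gives about 5%. The clones furthest from Ctrl were named for their differences, so the sets are not a neutral sample. Ctrl replicate 4 was low for 5 clones. It was at 6.97 for tcay0009.l.07 (10.18 to 11.11 on the others), 6.97 for 1rt30j20_d_e10 (9.24 to 9.76), 7.27 for 1rt152f19_b_c10 (8.32 to 8.71), 8.92 for 1rt39g22_c_d11 (9.88 to 10.17) and 7.47 for tcay0015.j.13 (8.71 to 9.06). It was high for 1rt54b10_d_a05, at 10.32 (6.46 to 6.84), as was Ctrl replicate 2 for tcbk0035.i.02, at 10.32 (5.21 to 6.62).

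With Fsh, replicate 4 was low at 5.76 for 1rt54b10_d_a05 (6.42 to 6.63) and at 7.80 for tcbk0035.l.03 (8.30 to 8.53), and high at 7.21 for tcbk0035.i.02 (5.70 to 6.07). Fsh replicate 2 was high at 9.0 for 1rt152f19_b_c10 (7.75 to 8.15) and at 9.39 for tcay0012.e.18 (7.51 to 8.14). With Tri, the median of the 155 clones was highest on replicate 1, at 8.43 (8.32 to 8.36), as was tcbk0035.l.03, at 10.04 (7.56 to 8.36). Tri replicate 6 was high at 9.88 for 1rt154b14_d_a07 (8.86 to 9.23) and at 6.92 for tcay0038.h.08 (5.89 to 6.26). Clone 1rt116k18_c_f09 was at 10.98 on Fsh+Tri replicate 3 (10.05 to 10.19), and its call for Fsh+Tri against Fsh was lost without that array.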

How the results depend on the processing

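The number of clones gained at least 2-fold lay between 149 and 186 over 15 alternatives. It was 186 without Ctrl replicate 4, of which 150 were among the 155, and 186 without T0 replicate 2. The median over T0 with Fsh+Tri was 1.54, and ran from 1.45 (without T0 replicate 1) to 1.61 (without T0 replicate 2). Of the 11 clones higher with Fsh+Tri than with Fsh, the count lay between 10 and 13 over 34 alternatives, and 9 of the clones passed in each of them. The count of 1 lower clone was 0 without Fsh replicate 1 or Fsh+Tri replicate 4 and 2 without Fsh replicate 3. For Fsh+Tri against Tri the count of 0 higher became 2 and of 0 lower 1 with only the 18 treated arrays in the fit, 3 higher with array weights, and 0 to 2 higher when 1 array was left out, the 2 being without Ctrl replicate 4 (tcbk0027.h.05 and 1rt41c21_a_b11). The F-test passed 20 with the 18 arrays and 21 with array weights, and 11 to 19 with 1 array left out. Shares of all clones tested were not computed under these alternatives. Among clones at least 1.5-fold from Ctrl, leaving out Ctrl replicate 4, chosen after seeing the data, gave 2 higher and 7 lower with Fsh, 1 lower with Tri and 6 lower with Fsh+Tri. The shares of the 4002 clones without that array were not computed. With the replicate number as a block, 12 clones were higher and 1 lower with Fsh+Tri than with Fsh, 0 passed against Tri and 12 passed the F-test, and of the 6 pairs of arrays in each of 4 comparisons at most 2 were closest to their own number. Stage gave 0 calls in each of 21 alternatives. The alternatives starting from spot intensities were not run, because the spots pair with no clone here.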
